A study of Homo sapiens with 16 samples.

Results

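The endoplasmic reticulum (ER) is the compartment in which secreted and membrane proteins enter the secretory route and fold. The genes described here encode 40 of its chaperones, disulfide isomerases and translocation proteins, and were taken as a list of gene symbols matched to the 60662 gene identifiers of the deposited tables. All 40 were found, and all 40 passed the filter on low counts. They fall into 5 roles: 10 genes of the HSP70 cycle, 4 HSP90 and lectin chaperones, 13 genes of oxidative folding, 4 prolyl isomerases and 9 genes of the translocon.

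RNA was sequenced from wild-type Jurkat E6-1, an established human T cell line. The control group was 8 libraries of untreated cells taken at 0 h, and the peroxide group was 8 libraries of cells moved to phosphate-buffered saline (PBS), exposed to 10 µM hydrogen peroxide there for 4 h. Time, the change of medium and peroxide therefore differ together between the groups, and a group kept in PBS without peroxide was not analysed here. The names of the deposited tables place 4 libraries of each group in each of 2 batches, and no source used here says what a batch is. The labels call the libraries biological replicates but do not say that each came from a separate culture, so p-values measure the spread between these libraries.

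As background, the Sec61 channel threads new chains into the ER, where the HSP70 protein BiP, encoded by HSPA5, binds them. J proteins such as DNAJB9 and DNAJB11 start its ATP cycle, and SIL1 and HYOU1 exchange its nucleotide. Calnexin and calreticulin hold glycoproteins by their sugars, protein disulfide isomerases place disulfide bonds, and the ERO1 oxidases re-oxidise the isomerases and make hydrogen peroxide as they do so. Unfolded protein in the ER starts the unfolded protein response, in which the factors ATF6 and XBP1 act with NF-Y at ER stress response elements (ERSE) in promoters of chaperone genes.

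Exact matches to these elements were looked for on both strands of RefSeq promoter windows (GRCh38.p14, 250 bases before to 50 after each annotated start site), for 38 of the 40 genes; FKBP14 and PDIA3 were not searched. The 250 bases before the HSPA5 start site, chr9:125241344-125241593 on the minus strand, are shown because HSPA5 had the largest rise of the 40 genes; capitals mark its exact ERSE. Below it stand the matches of the other genes with up to 10 flanking bases on each side, since every gene of the list with such a match was higher after peroxide over all libraries. Outside the list this did not hold: of 20 tested genes with such a match 6 were higher, against 24.1% of all genes tested. Capitals mark the element, which reads as its reverse complement in several promoters, and all runs are 5′ to 3′ on the strand of the gene.
HSPA5: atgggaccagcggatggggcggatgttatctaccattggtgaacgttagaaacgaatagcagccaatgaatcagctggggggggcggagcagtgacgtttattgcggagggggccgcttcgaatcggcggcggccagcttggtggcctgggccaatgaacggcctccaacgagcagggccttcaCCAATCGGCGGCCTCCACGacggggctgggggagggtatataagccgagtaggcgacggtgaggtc
HSP90B1, ERSE, chr12:103930206-103930244, plus strand: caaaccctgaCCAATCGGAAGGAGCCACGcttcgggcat
HSP90B1, ERSE, chr12:103930311-103930349, plus strand: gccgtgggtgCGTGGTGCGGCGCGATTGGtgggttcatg
CALR, ERSE, chr19:12938374-12938412, plus strand: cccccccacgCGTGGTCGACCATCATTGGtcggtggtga
CANX, ERSE, chr5:179698768-179698806, plus strand: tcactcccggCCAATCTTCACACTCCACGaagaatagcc
PDIA6, ERSE, chr2:10812843-10812881, minus strand: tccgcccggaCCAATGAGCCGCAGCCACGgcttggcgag
ERO1B, ERSE, chr1:236282173-236282208, minus strand: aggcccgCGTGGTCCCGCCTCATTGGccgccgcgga
CRELD2, ERSE, chr22:49918544-49918582, plus strand: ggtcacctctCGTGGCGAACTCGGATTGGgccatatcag
HYOU1, ERSE-II, chr11:119057370-119057400, minus strand: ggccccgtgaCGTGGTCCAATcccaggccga
HYOU1, ERSE-II, chr11:119057264-119057294, minus strand: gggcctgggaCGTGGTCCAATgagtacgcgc
SDF2L1, ERSE-II, chr22:21642104-21642134, plus strand: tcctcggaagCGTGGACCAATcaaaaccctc

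Libraries held 5556553 to 15720881 reads in genes. The 12 T cell genes checked summed to 3798 to 4684 CPM (reads scaled to library size, with TMM factors) in controls and 3602 to 4504 after peroxide. CD3G (log2 fold change -0.48), CD2 (-0.25), CD28 (-0.22) and CD1E (-0.21) were called lower and the other 8, CD3D, CD3E and LCK among them, were not called. Of the marker lists of other lineages, the plasma cell list, 2 of whose 4 genes stayed under 1 CPM, summed to 0.938 to 2.59 CPM in controls and 3.37 to 7.11 after peroxide. The corresponding sums were 0.343 to 1.246 and 3.26 to 8.24 for 5 myeloid genes, 2 of them under 1 CPM, and 0 to 0.122 and 0.209 to 0.867 for 4 erythroid genes, all 4 under 1 CPM. The B cell list summed to 29.9 to 50.5 and 31.5 to 55.7 CPM, nearly all of it CD79A, with MS4A1 and PAX5 at or near 0, and epithelial or fibroblast genes to 3.19 to 4.76 and 2.89 to 6.87 CPM, with EPCAM and COL1A2 at 0. Among these lists SDC1, a plasma cell marker (10 reads over all controls, 255 after peroxide; log2 fold change 4.82), and CD14, a monocyte marker (22 and 213 reads; 3.48), were called higher, at medians of 3.94 and 2.66 CPM after peroxide. The part of these marker changes in the results was not tested. Non-unique alignments made up 34.1% ± 5.43 of all counted reads in the controls and 38.3% ± 4.33 in the treated libraries (SD, n = 8; p = 0.107 by a two-sided exact permutation test, 0.161 adjusted over 3 library measures). Within batch 2 the same share was 32.8% ± 0.942 against 40.8% ± 4.46, with an exact permutation p of 0.0286, the smallest that 4 against 4 allows; within batch 1 it was 35.3% ± 7.98 against 35.9% ± 2.83, with an exact permutation p of 0.943. The part of this share in the results was not tested. Mitochondrial genes held 2.98% ± 0.219 of the reads in genes in controls and 1.77% ± 0.304 after peroxide (exact permutation p = 0.000155, the smallest possible, adjusted 0.000466), and the part of that shift in the results was not tested.

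Chaperones of the HSP70 cycle rose most and the translocon least. Of the 40 genes, 24 (60%) were higher after peroxide at an adjusted p under 0.05 (quasi-likelihood test in edgeR on a model of batch plus group, Benjamini-Hochberg over all genes tested), against 24.1% of all 14092 genes tested. SIL1, UGGT1 and ERO1A were lower, which is 7.5% of the genes against 24.3% of all genes tested, and 13 were not called. A rise of 2-fold or more, a log2 fold change of at least 1, was found in 12 genes (30%) against 5.93% of all genes tested, and a fall of that size in 0 genes against 0.915%. In 11 genes (27.5%) every peroxide library lay above every control, which held for 6.76% of all genes tested, and in UGGT1 every peroxide library lay below every control, which held for 4.49%. The median log2 fold change was 0.42 over the 40 genes and -0.01 over all genes tested. With total counts in place of TMM scaling factors these medians were 0.36 and -0.08, and the split over all genes moved from 3391 higher and 3419 lower to 2822 higher and 4375 lower, with 24 of the 40 still higher and 4 lower.

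**Figure D1:**
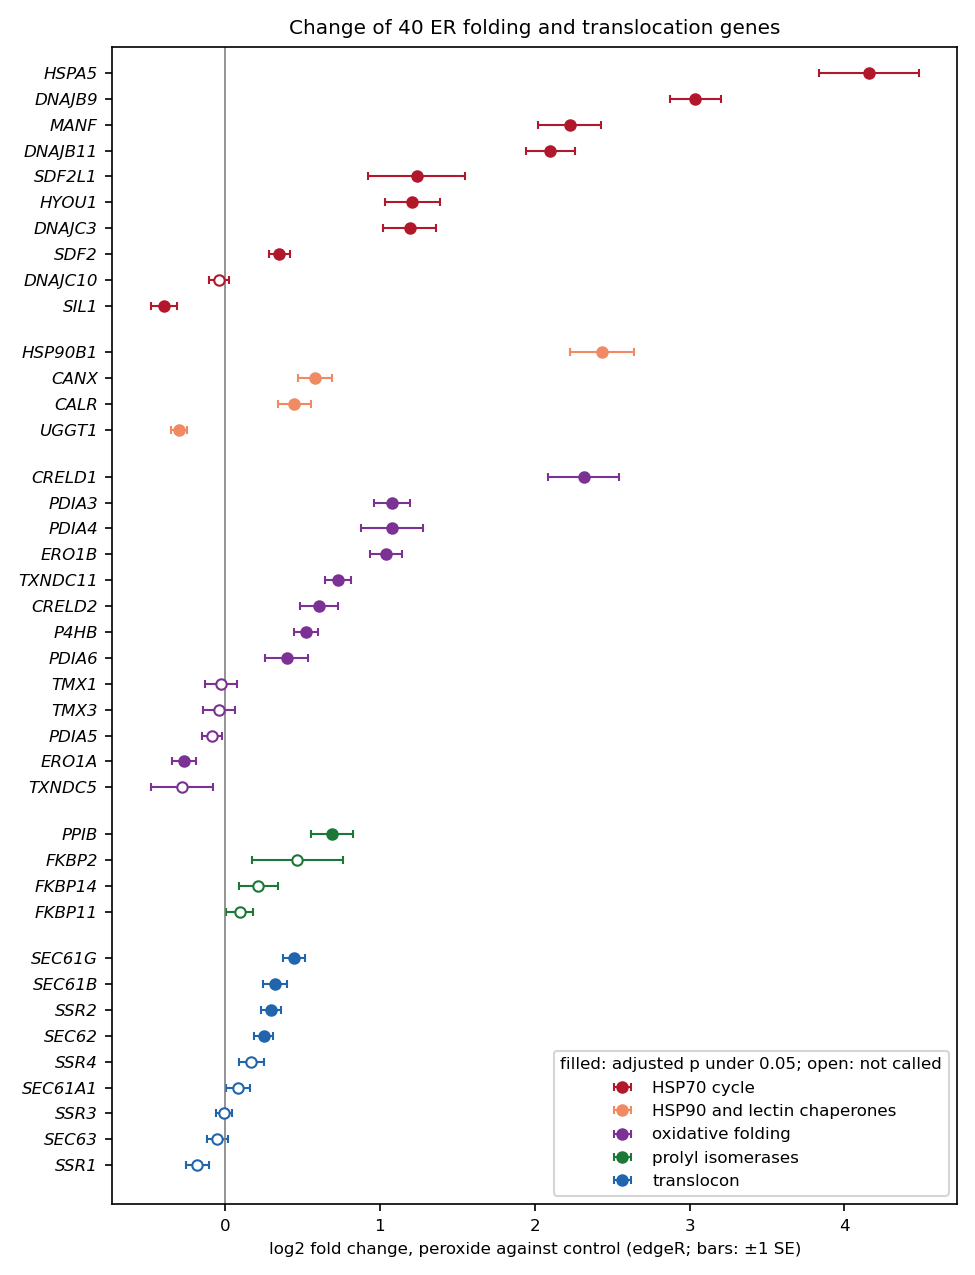
Log2 fold change of each gene, peroxide against control, with bars of 1 standard error (SE) on a linear axis; genes are grouped and coloured by role, and filled points passed the test. HSPA5 at 4.16 and DNAJB9 at 3.04 lie farthest to the right, and the 9 translocon genes lie between -0.18 and 0.44.

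Split by role, 8 of 10 HSP70 cycle genes were higher and 1 lower, with a median log2 fold change of 1.22 and a range of -0.40 to 4.16. Oxidative folding had 8 of 13 higher and 1 lower, with a median of 0.52 and a range of -0.28 to 2.32. The translocon had 4 of 9 higher and 0 lower, with a median of 0.17 and a range of -0.18 to 0.44. The groups overlapped in all 9 of its genes, as they did in most genes tested. Over all genes tested every peroxide library lay above every control in 6.76% and below in 4.49%. HSP90 and lectin chaperones had 3 of 4 higher, 1 lower and a median of 0.51, and prolyl isomerases 1 of 4 higher, 0 lower and a median of 0.34. A rise of 2-fold or more was made by 7 genes of the HSP70 cycle, 4 of oxidative folding, HSP90B1, and 0 of the translocon. These roles were not compared by a test. The libraries are bulk RNA, so a change in every cell and a change in the share of responding cells cannot be told apart, nor can fewer cells from less RNA per cell.

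The 40 genes together held 0.573% ± 0.0838 of the reads in genes in controls and 1.35% ± 0.356 in peroxide libraries (SD, n = 8 each). The lowest peroxide library, at 0.939%, lay above the highest control, at 0.7102%. The HSP70 cycle went from 0.103% ± 0.0244 to 0.5995% ± 0.219, and HSPA5 took most of that gain: without it the same role went from 0.0739% ± 0.00623 to 0.180% ± 0.0695. HSP90 and lectin chaperones went from 0.228% ± 0.0444 to 0.449% ± 0.106, and oxidative folding from 0.124% ± 0.0120 to 0.173% ± 0.0324. Translocon genes held 0.107% ± 0.00255 and 0.110% ± 0.00648, and prolyl isomerases 0.0119% ± 0.00268 and 0.0160% ± 0.00236. Averaged over both batches, the translocon and the HSP70 cycle thus held nearly equal shares of reads in controls and shares far apart after peroxide. Within a batch the control shares were less alike. The HSP70 cycle held 0.109% to 0.144% in batch 1 controls and 0.0791% to 0.0855% in batch 2 controls. The translocon held 0.107% to 0.111% and 0.102% to 0.108%.

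**Figure D2:**
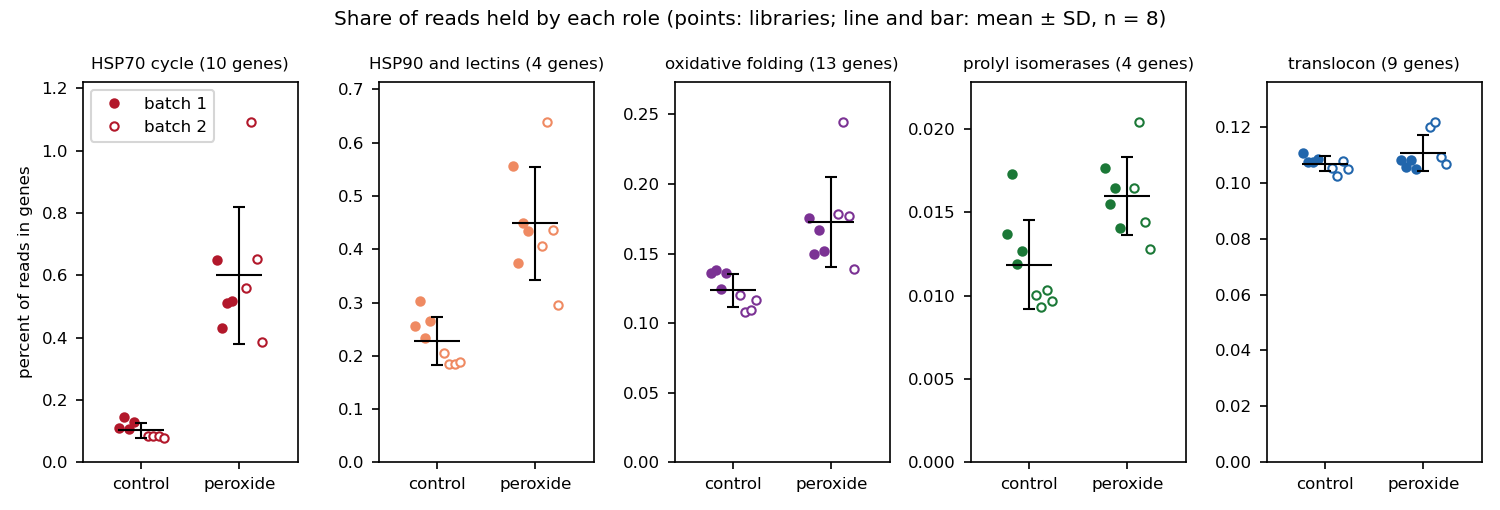
Share of the reads in genes, in percent on linear axes that start at 0, held by the genes of each role in each library, with filled points for batch 1, open points for batch 2 and the mean ± SD of 8 libraries. The HSP70 cycle lay between 0.0791% and 0.144% in controls and 0.386% and 1.09% after peroxide, whereas the translocon lay between 0.102% and 0.111% and between 0.105% and 0.122%.

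HSPA5 (ENSG00000044574.8) had 99.6, 238.8 and 605.3 CPM in the lowest, median and highest control and 2540, 3939 and 7340 CPM after peroxide. The groups did not overlap: the lowest treated library lay far above the highest control. Its log2 fold change was 4.16 ± 0.32 (SE), with an adjusted p of 8.49e-10 by edgeR's quasi-likelihood test, the test used throughout. The processed pseudogene HSPA5P1, whose reads are hard to tell from those of HSPA5, held 3 reads over all controls and 60 after peroxide, against 21632 and 295163 for HSPA5. DNAJB9 (ENSG00000128590.5), the J protein ERdj4, had 7.97, 12.1 and 13.5 CPM in controls and 52.3, 86.0 and 157.9 CPM after peroxide, with a log2 fold change of 3.04 ± 0.16. Every peroxide library was again above every control. MANF (ENSG00000145050.18), a small secreted ER protein that binds BiP, had 52.6, 87.3 and 165.3 CPM in controls and 249.9, 405.8 and 631.8 CPM after peroxide, with a log2 fold change of 2.23 ± 0.20. DNAJB11, the J protein ERdj3, rose by 2.10 ± 0.16 on the log2 scale from 51.7 to 77.7 CPM in controls to 153.7 to 416.8 CPM after peroxide.

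The co-chaperones that act on the BiP cycle after the J proteins did not move as a block. HYOU1 (GRP170), a large HSP70 relative and nucleotide exchange factor, lay at 250.1 to 372.9 CPM in controls and rose to 412.0 to 1407 CPM, with a log2 fold change of 1.21 ± 0.18. SIL1, the other exchange factor, had 16.2, 19.1 and 26.1 CPM in the lowest, median and highest control and 10.5, 16.5 and 20.5 CPM after peroxide. The groups overlapped, with the batch 2 controls highest, and SIL1 fell in the fit with batch as a term, with a log2 fold change of -0.40 ± 0.08 and an adjusted p of 0.000491, and was lower in each batch (-0.43 and -0.37). The log2 ratio of HSPA5 to SIL1 within a library was 2.14 to 5.16 in controls and 7.16 to 8.78 after peroxide, without overlap. DNAJC3 (p58IPK), a J protein that also inhibits the kinase PERK, rose by 1.19 ± 0.17, whereas DNAJC10 (ERdj5), a J protein that reduces disulfides, had -0.04 ± 0.06 and was not called.

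The paralogs SDF2L1 and SDF2, partners of DNAJB11 that keep its clients soluble, were both called higher over all libraries. SDF2 had 26.4, 31.4 and 40.5 CPM in controls and 36.9, 39.5 and 45.8 CPM after peroxide, with overlapping groups and a log2 fold change of 0.35 ± 0.07. SDF2L1 had 24.8, 38.4 and 57.0 CPM in controls and 47.0, 70.5 and 277.6 CPM after peroxide, with a log2 fold change of 1.24 ± 0.31. Its peroxide libraries spread widely, its SE was among the largest of the 40, and its adjusted p was 0.236 with batch 1 alone. In batch 1 SDF2L1 had 0.23 ± 0.30 and SDF2 0.33 ± 0.09, and in batch 2 they had 2.22 ± 0.31 and 0.37 ± 0.09. The difference between the paralogs was not tested, and their log2 ratio overlapped between the groups (-0.16 to 0.84 in controls, 0.13 to 2.91 after peroxide).

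**Figure D3:**
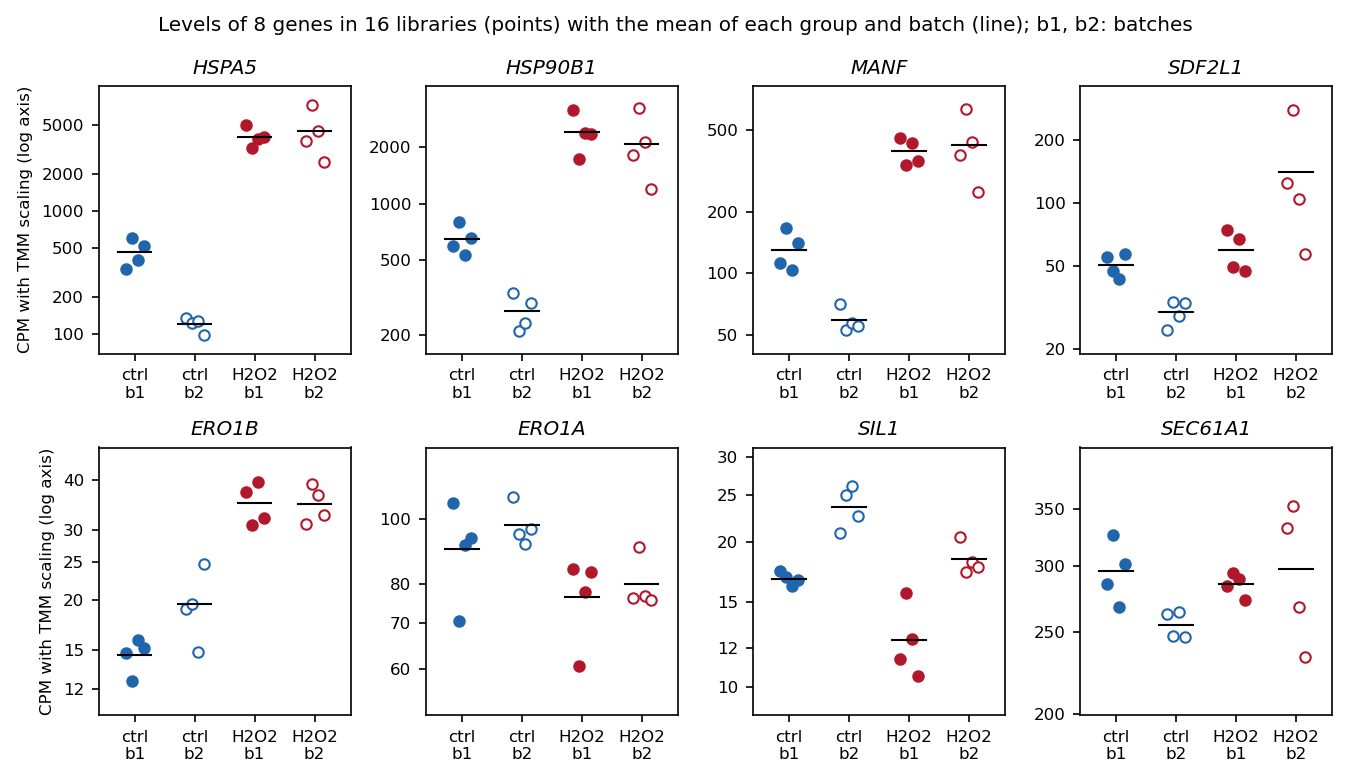
Levels of 8 genes in CPM with TMM scaling on log axes, with a point for each library, filled for batch 1 (b1) and open for batch 2 (b2), and a line at the mean of each group and batch. HSPA5, HSP90B1 and MANF had lower controls in batch 2 and similar peroxide levels in both batches, and SEC61A1 overlapped between the groups.

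HSP90B1 (GRP94, ENSG00000166598.15), the HSP90 of the ER, had 209.4, 434.6 and 799.9 CPM in controls and 1199, 2249 and 3224 CPM after peroxide. The groups did not overlap, and the log2 fold change of 2.44 ± 0.21 was the third largest of the 40. The glycoprotein chaperones moved less. CANX (calnexin) had 467.2, 588.2 and 709.7 CPM in controls and 579.1, 864.9 and 1145 CPM after peroxide, with a log2 fold change of 0.58 ± 0.11. CALR (calreticulin) had 686.9, 883.1 and 1350 CPM in controls and 905.0, 1251 and 1664 CPM, with 0.45 ± 0.11 and an adjusted p of 0.116 with batch 1 alone. The groups overlapped for each of them, and their log2 ratio (CALR to CANX) overlapped too, at 0.34 to 0.93 in controls and 0.31 to 0.85 after peroxide. UGGT1, the glucosyltransferase that sends unfolded glycoproteins back to these lectins, went the other way: it had 245.7, 266.4 and 303.0 CPM in controls and 181.0, 221.4 and 242.1 CPM after peroxide, a log2 fold change of -0.30 ± 0.05 with an adjusted p of 0.000108.

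Among the disulfide genes, CRELD1 (ENSG00000163703.18) and its paralog CRELD2, ER proteins assigned to disulfide exchange, rose from very different levels. CRELD1 had 2.12, 3.601 and 4.50 CPM in controls and 8.67, 15.2 and 31.1 CPM after peroxide, a log2 fold change of 2.32 ± 0.23 with no overlap. Its upstream neighbour on the same strand, IL17RC, ends 192 bases before CRELD1 begins in GENCODE 29 and went from 3.57 to 12.3 CPM (log2 fold change 1.79 ± 0.17), and the part of reads running on from it was not tested. CRELD2 rose by 0.61 ± 0.12, from 35.2 to 44.9 CPM in controls to 37.7 to 109.8 CPM, and had an adjusted p of 0.0762 with batch 1 alone. The log2 ratio of CRELD2 to CRELD1 within a library was 3.01 to 4.31 in controls and 0.90 to 2.95 after peroxide, without overlap. MANF likewise has a gene upstream, DOCK3, which ends 849 bases before it and was not called (0.05 ± 0.09).

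Of the PDI family, PDIA3 (ERp57), the isomerase that works with the lectins, had 98.7, 122.7 and 186.9 CPM in controls and 162.8, 262.2 and 350.4 CPM after peroxide, with a log2 fold change of 1.08 ± 0.12. PDIA4 (ERp72) had 114.6, 186.8 and 312.2 CPM in controls and 194.2, 382.6 and 635.6 CPM, also with 1.08 but with an SE of 0.20. PDIA6 (P5), an isomerase found in complexes with BiP, had 98.5, 129.0 and 195.7 CPM in controls and 114.1, 169.2 and 254.2 CPM, with 0.40 ± 0.14 and an adjusted p of 0.0206. The groups overlapped in all 3 genes. PDIA6 shares 25.2% of its exonic bases with ATP6V1C2 on the opposite strand, and its adjusted p was 0.966 with batch 1 alone and 0.111 without the batch term.

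P4HB, the founding disulfide isomerase, and TXNDC11, a partner of DUOX oxidases and of ER degradation, rose without overlap. P4HB went from 274.4 to 352.2 CPM in controls to 381.0 to 542.6 CPM (0.52 ± 0.08), and TXNDC11 from 27.0 to 35.7 CPM to 42.3 to 67.8 CPM (0.73 ± 0.08). PDIA5 (-0.08 ± 0.07) and the membrane-bound isomerases TMX1 (-0.03 ± 0.10) and TMX3 (-0.04 ± 0.11) were not called. TXNDC5 was not called either (-0.28 ± 0.20; adjusted p = 0.0434 with batch 1 alone) and lay at 1.88 to 7.81 CPM over all libraries; 60.6% of its exonic bases are shared with the read-through gene BLOC1S5-TXNDC5, so its count is uncertain.

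The 2 ERO1 oxidases, which pass electrons from disulfide isomerases to oxygen, were called in opposite directions. ERO1A had 70.6, 94.4 and 108.0 CPM in controls and 60.6, 77.5 and 90.9 CPM after peroxide, a log2 fold change of -0.27 ± 0.08 with an adjusted p of 0.00817. ERO1B lay at 12.6 to 24.6 CPM in controls and rose to 30.8 to 39.6 CPM without overlap (log2 fold change 1.04 ± 0.10). The log2 ratio of ERO1A to ERO1B within a library was 1.97, 2.52 and 2.84 in the lowest, median and highest control and 0.98, 1.20 and 1.38 after peroxide. All 8 peroxide libraries were below all 8 controls in this ratio, and ERO1A stayed the higher of the pair in CPM. With batch 1 alone the adjusted p of ERO1A was 0.151.

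PPIB (cyclophilin B), a prolyl isomerase bound to several ER chaperones, was the called gene of its role. It had 51.0, 73.6 and 134.5 CPM in controls and 87.3, 121.5 and 157.0 CPM after peroxide, with overlapping groups, a log2 fold change of 0.69 ± 0.14 and an adjusted p of 0.0850 with batch 1 alone. It shares 27.2% of its exonic bases with SNX22 on the opposite strand. FKBP11 had a log2 fold change of 0.09 ± 0.09 and FKBP14 of 0.22 ± 0.12, and FKBP2, at 0.343 to 2.27 CPM the scarcest of the 40, had 0.47 ± 0.29.

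In the translocon, small subunits rose while the channel itself did not pass the test. SEC61G (ENSG00000132432.14), the gamma subunit, had 35.4, 48.2 and 67.6 CPM in controls and 51.9, 64.7 and 81.9 CPM after peroxide, with a log2 fold change of 0.44 ± 0.07. SEC61B, the beta subunit, had 50.4, 71.3 and 104.7 CPM in controls and 76.0, 93.3 and 111.5 CPM, with 0.32 ± 0.08. SEC61A1, the channel-forming alpha subunit, lay at 246.4 to 326.7 CPM in controls and 233.9 to 353.4 CPM after peroxide, with 0.09 ± 0.08 and an adjusted p of 0.380. Groups overlapped for all 3 subunits.

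Among the SSR genes, which encode the translocon-associated protein complex, SSR2 had 79.2, 102.5 and 125.7 CPM in controls and 101.0, 119.2 and 161.8 CPM after peroxide, a log2 fold change of 0.30 ± 0.06. SSR4 (0.17 ± 0.08), SSR3 (-0.01 ± 0.05) and SSR1 (-0.18 ± 0.07, adjusted p = 0.0529) were not called. SSR1 passed the test as lower in 10 of 24 alternative settings, DESeq2 (adjusted p = 0.0488) and total counts (adjusted p = 0.0102) among them. SSR4 passed it as higher in 2 of 24, with batch 2 alone and without peroxide 1. SEC62, a receptor for chains imported after synthesis, had 84.8, 97.4 and 113.7 CPM in controls and 101.2, 120.0 and 130.1 CPM, with 0.25 ± 0.06 (adjusted p = 0.0800 with batch 2 alone), and its J protein partner SEC63 had -0.05 ± 0.07 and was not called. With batch 1 alone 2 of the 9 translocon genes were higher, and SEC61B (adjusted p = 0.241) and SSR2 (adjusted p = 0.0806) were not; without the batch term SEC61B had an adjusted p of 0.110.

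Levels of different genes were compared per length, as mean CPM per kilobase of GENCODE 29 exonic sequence. In controls CALR led at 346.8, followed by HSP90B1 at 97.4, CANX at 94.5 and HSPA5 at 75.3 CPM per kilobase. After peroxide the order was HSPA5 at 1097, HSP90B1 at 480.8, CALR at 464.0 and MANF at 172.1 CPM per kilobase. HSPA5 thus moved from the fourth place to the first and MANF from 39.7 CPM per kilobase, the tenth place, to the fourth. DNAJB9 went from 3.96 to 32.5 CPM per kilobase, and SEC61B, the highest translocon gene by this measure in both groups, from 62.7 to 76.9. The length merges every annotated exon of a gene, so these orders depend on the annotation. It was 1.19 kilobases for SEC61B and 4.59 for SSR4, whose mean CPM in controls were 74.7 and 100.3. The length of the transcripts present was not measured. Neighbours in these orders were not tested against each other.

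The size of the rise depended on the batch in 5 of the 40 genes (12.5%; batch by group interaction, edgeR quasi-likelihood test, adjusted p under 0.05), against 4.88% of all genes tested in either direction and 1.87% with a larger or less negative change in batch 2, which was the direction of all 5. They were HSPA5, SDF2L1, MANF, PDIA4 and PDIA6. The estimate of the interaction was above 0 in 31 of the 40 genes (77.5%) and in 48.1% of all genes tested. Of the 24 genes called higher, 21 had the larger rise in batch 2. The share among all genes called higher was not computed, so that count cannot be read as a trait of these genes. No such dependence on the batch was called for DNAJB9, which rose by 3.07 in batch 1 and 3.01 in batch 2 on the log2 scale.

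HSPA5 rose by 3.12 ± 0.24 in batch 1 and 5.22 ± 0.27 in batch 2, a difference of 2.10 ± 0.32 (adjusted p = 0.000926). Its 4 controls of batch 1 had 342.3, 605.3, 398.8 and 518.4 CPM and those of batch 2 135.4, 124.1, 128.8 and 99.6 CPM, while its peroxide libraries had 5012, 3278, 3851 and 4027 CPM in batch 1 and 3721, 7340, 4534 and 2540 CPM in batch 2. The batches were apart in the controls and overlapped after peroxide. The same held for MANF, which rose by 1.61 ± 0.20 and 2.85 ± 0.21 (difference 1.24 ± 0.28, adjusted p = 0.0144). MANF controls had 112.1, 165.3, 104.1 and 140.2 CPM in batch 1 and 70.6, 52.6, 56.8 and 55.03 CPM in batch 2, and its peroxide libraries had 459.0, 338.3, 435.0 and 354.7 CPM and 376.5, 631.8, 436.3 and 249.9 CPM.

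SDF2L1 was spread more widely in the treated libraries of batch 2. Its 4 controls had 54.8, 47.5, 43.3 and 57.0 CPM in batch 1 and 24.8, 33.5, 28.8 and 33.3 CPM in batch 2, and its peroxide libraries had 74.0, 49.3, 67.0 and 47.0 CPM in batch 1 and 124.5, 277.6, 103.8 and 56.6 CPM in batch 2. The batches overlapped after peroxide, with 3 of the batch 2 libraries above all of batch 1. The change was 0.23 ± 0.30 in batch 1, where the groups overlapped, and 2.22 ± 0.31 in batch 2, where they did not, a difference of 1.99 ± 0.43 (adjusted p = 0.0105). PDIA4 controls had 252.2, 312.2, 224.7 and 262.1 CPM in batch 1 and 149.0, 114.6, 119.9 and 122.3 CPM in batch 2, and its peroxide libraries 413.1, 328.5, 400.4 and 326.3 CPM and 364.9, 635.6, 419.6 and 194.2 CPM. It changed by 0.48 ± 0.21 and 1.68 ± 0.22, a difference of 1.19 ± 0.30 (adjusted p = 0.0287).

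PDIA6 controls had 164.5, 195.7, 153.2 and 170.6 CPM in batch 1 and 104.9, 98.5, 100.7 and 103.5 CPM in batch 2. Its peroxide libraries had 184.4, 162.5, 185.3 and 153.1 CPM in batch 1, within or near the range of those controls, and 175.9, 254.2, 160.3 and 114.1 CPM in batch 2, all above theirs. The changes were 0.01 ± 0.15 and 0.79 ± 0.15, a difference of 0.79 ± 0.21 (adjusted p = 0.0380). The interaction of HSPA5, SDF2L1 and MANF was called in all 20 alternative settings in which it was computed. That of PDIA4 was not called in 6 of them, among them without control replicate 2 (adjusted p = 0.0533), and that of PDIA6 in 9, among them without control replicate 2 (adjusted p = 0.0708).

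**Figure D4:**
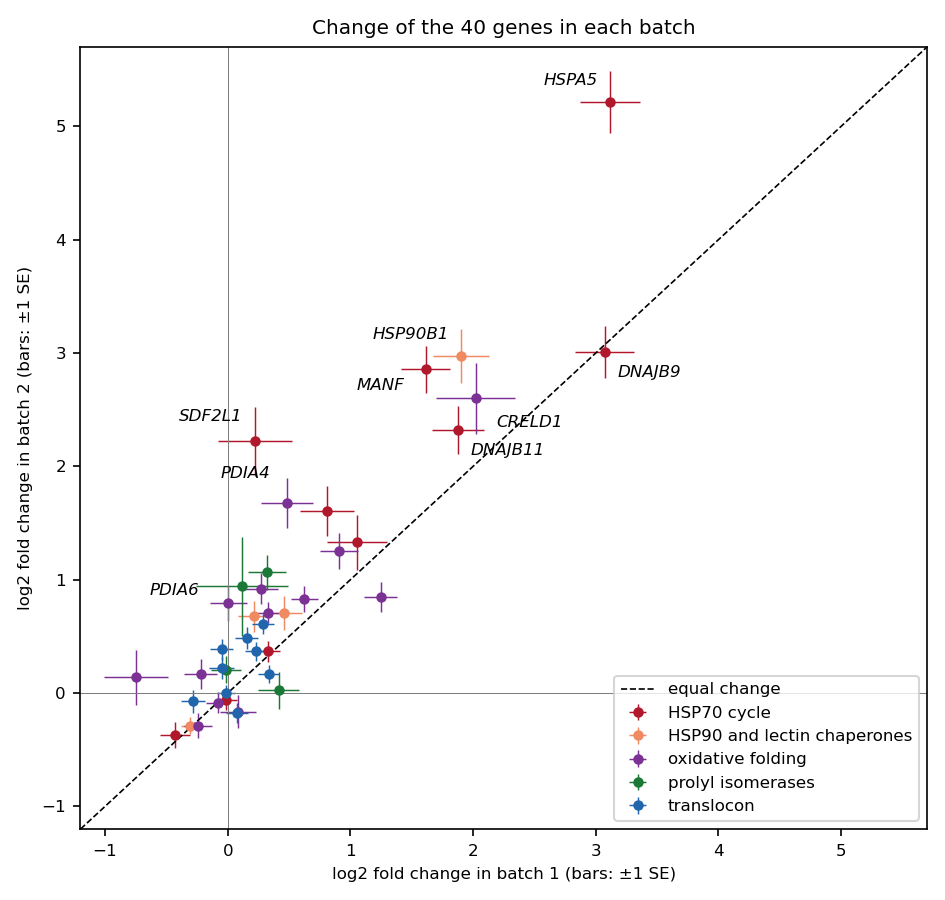
Log2 fold change of each gene in batch 1 (x axis) against batch 2 (y axis), with bars of 1 SE, colours for roles and a dashed line where both are equal. HSPA5 (3.12 and 5.22), SDF2L1 (0.23 and 2.22) and MANF (1.61 and 2.85) lie above the line and DNAJB9 (3.07 and 3.01) lies on it.

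Control levels themselves differed between the batches in 17 of the 40 genes (42.5%), close to the 42.6% of all genes tested, and 15 of the 17 were lower in batch 2, a direction called in 20.5% of all genes tested. The log2 difference, batch 2 minus batch 1, was -1.93 ± 0.24 for HSPA5, -1.28 ± 0.23 for HSP90B1 and -1.15 ± 0.20 for MANF. The exceptions were SIL1 (0.50 ± 0.11) and ERO1B (0.40 ± 0.14), which were higher in batch 2 controls.

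Single libraries also stood out across the list. In batch 2, peroxide 6 was the highest of the 4 treated libraries for 27 of the 40 genes, 8 of 10 HSP70 cycle genes among them, and for 27.2% of all genes tested, and peroxide 8 was the lowest for 27 genes and for 29.1% of all. In batch 1, peroxide 1 was the highest for 25 genes (30.9% of all) and peroxide 2 the lowest for 24 (30.8% of all). Leaving out each of the 16 libraries in turn left 24 or 25 genes higher and 3 or 4 lower.

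Lists of genes with related tasks were counted in the same way. Of 24 tested among 30 other ER folding genes, 6 were higher and 7 lower, near the 24.1% and 24.3% of all genes tested, with a median log2 fold change of 0.03. HSPA13, an ER-associated HSP70, had 0.62 ± 0.10, VKORC1L1, a vitamin K epoxide reductase, -0.31 ± 0.06 and MOGS, the first glucosidase of N-glycan trimming, -0.37 ± 0.08. MOGS had -0.60 in batch 1 and -0.14 in batch 2 (adjusted p = 0.0242 by edgeR's test of the interaction). Of 29 genes of ER targeting, signal peptidase and oligosaccharyltransferase, 5 were higher and 3 lower, with a median of 0.04. TRAM2, a translocation factor, had -0.43 ± 0.06, SRP54, the signal-binding subunit of the signal recognition particle, 0.23 ± 0.05 and RPN2, an oligosaccharyltransferase subunit, -0.28 ± 0.07.

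Of 14 ER stress regulators 7 were higher and 4 lower, with a median of 0.31. HERPUD1, a membrane component of ER-associated degradation, went from 53.4 ± 20.1 to 680.8 ± 202 CPM (SD, n = 8; log2 fold change 3.73 ± 0.19). PPP1R15A (GADD34), which directs dephosphorylation of eIF2α, had 3.22 ± 0.20 and the transcription factor ATF4 had 1.17 ± 0.07. By edgeR's test of the interaction the change depended on the batch in 3 of the 14, against 4.88% of all genes tested. PPP1R15A was among the 3, with 3.94 in batch 1 and 2.57 in batch 2 (adjusted p = 0.00197). Of 18 genes of the HSP70 systems in cytosol and mitochondria 11 were higher and 1 lower, with a median of 0.26. The smallest p-values in that list were those of the cytosolic J proteins DNAJB6 (0.68 ± 0.07), DNAJB1 (2.04 ± 0.24) and DNAJA1 (1.35 ± 0.17). The interaction was called in 3 of the 18. DNAJA1 was among them, with 0.74 in batch 1 and 1.99 in batch 2 (adjusted p = 0.000475 by the same test).

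The changes can be set beside the promoter sequences printed above. The ERSE, searched as CCAAT, 9 bases of any kind and CCACG, was in the windows of HSPA5, HSP90B1 (2 matches), CALR, CANX, PDIA6, ERO1B and CRELD2, that is in 7 of 38, and in 0.0769% of 35116 promoter windows of the same length (0.146% of the 10296 tested genes with a window). The ERSE-II, searched as ATTGG, 1 base of any kind and CCACG, was in HYOU1 (2 matches) and SDF2L1 and in 0.0541% of all windows (0.136% of tested genes with a window). All 9 genes with either element were higher after peroxide over all libraries, with a median log2 fold change of 1.04. With batch 1 alone CALR, PDIA6, SDF2L1 and CRELD2 of these 9 were not called and the rest were. Of the other 29 genes with a window, 14 were higher over all libraries, with a median of 0.25. Outside the list, 20 tested genes had either element, and 6 of these were higher, against 24.1% of all genes tested, with a median of 0.03 over the 20. The 6 were HERPUD1 (3.73), CNKSR1 (1.79), XBP1 (1.13), EIF2A (0.62), ZNF143 (0.41) and CAMTA1 (0.28). FICD, GYS1, NAV2 and ZNF17 were lower. A match describes letters in a window and not a binding site, and no factor was measured. The ERSE was introduced above as an element of chaperone promoters, so its frequency in a list of chaperone genes is not an independent finding.

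The translocon genes had no ERSE or ERSE-II in their windows, and neither did DNAJB9, MANF, DNAJB11 or CRELD1, which rose by over 2 on the log2 scale. The unfolded protein response element (UPRE), searched as TGACGTGG, was in HYOU1, where it overlaps an ERSE-II by 5 bases, and in DNAJC10, TXNDC5, TXNDC11, SSR3, SSR4 and SEC62. It was in 0.729% of all windows (1.20% of tested genes with a window). Of these 7 genes 3 were higher and 0 lower. Of all 124 tested genes with a UPRE, these 7 included, 31 were higher and 32 lower. The cAMP response element TGACGTCA and the C/EBP-ATF element TGATGCAAT were in none of the 38. They were present in 1.85% and 0.236% of all windows (3.95% and 0.165% of tested genes with a window). With shares this low, absence from 38 genes says little.

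**Figure D5:**
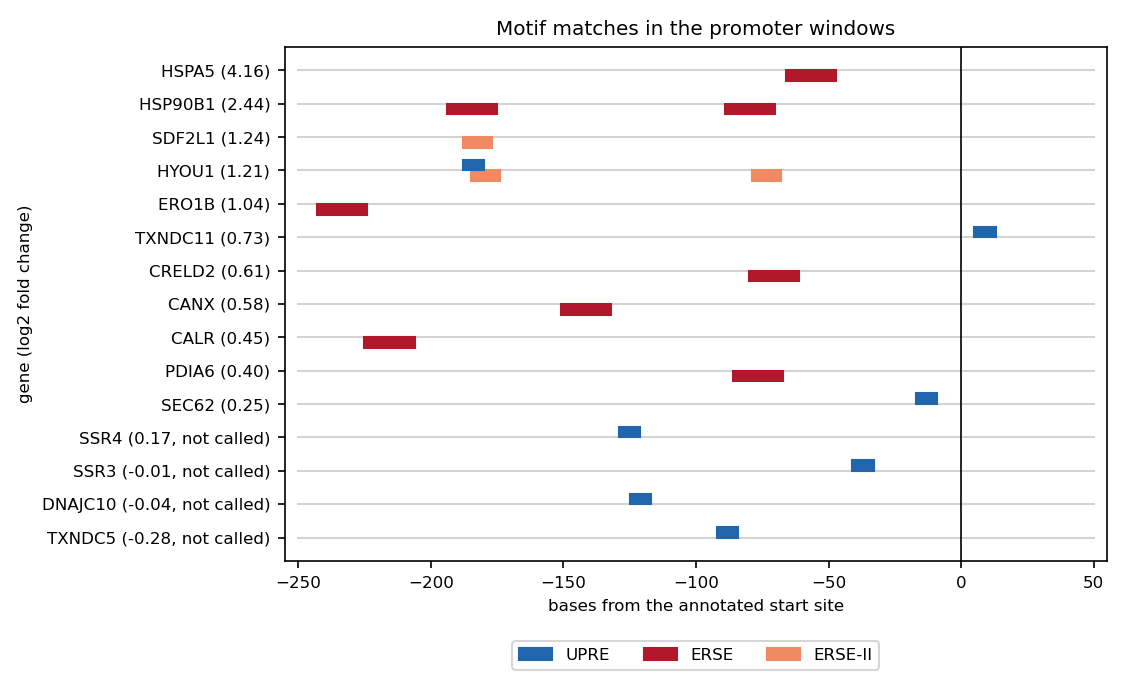
Position of exact matches to ERSE, ERSE-II and UPRE in the windows from 250 bases before to 50 after the annotated start site (x axis, bases; vertical line at the start site), with 1 line per gene, ordered by log2 fold change, which stands beside the name. Genes with ERSE or ERSE-II run from HSPA5 (4.16) to PDIA6 (0.40), and the 4 genes not called carry UPRE.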

How the data were processed

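Raw counts of reads per gene were deposited, in a table for each library, which the authors made with STAR 2.7.1a and HTSeq 0.6.1 on hg19, per the submitters' processing notes; RNA was isolated with TRIzol and libraries made with a TruSeq kit, per the labels' protocols. Many of the deposited versioned gene identifiers match GENCODE 29, a GRCh38 annotation, while those notes name hg19, so the annotation used in counting is unresolved. Gene overlaps, distances and exonic lengths given here are those of GENCODE 29. No source used here says whether strand was used in counting, and 27 of the 40 genes share exonic bases with another gene in GENCODE 29 (24 on the opposite strand), so their counts may hold reads of that gene. Symbols from a table of identifiers matched 60402 of 60662. The 5 entries per library that name no gene, with 43.5% to 57.6% of counted reads, were kept out. Genes were filtered with filterByExpr by group (14092 genes, 99.6% of reads in genes), scaled with TMM, and tested with edgeR 4.0.16 (R 4.3.3) by the quasi-likelihood test with batch and group, Benjamini-Hochberg adjusted over all genes. Calls needed an adjusted p under 0.05; an SE is the absolute log2 fold change over the root of F. The interaction of batch and group and the batch difference in controls came from a second model. Levels are CPM with TMM scaling. Pairs of libraries of a group differed by 2.96 to 46.6 in chi-square per degree of freedom, more than sampling noise, so all 16 were kept. Alternatives were DESeq2 1.42.0, total counts, no filter, no batch term, a replicate block, single batches and leaving out libraries. Added after seeing the data were leaving out control 1 and peroxide 5 together and the interaction in DESeq2. The alternatives for the interaction among the 40 genes were also added then. Every one of the 40 genes is described. The lowest, median and highest library are given for the 3 largest and 2 smallest log2 fold changes among called genes of each role. Every library value is given for genes called in the interaction. From each list of related genes, up to 3 genes with the smallest p are named. The genes, lists and rule were chosen with earlier results of these data known. Promoters are RefSeq's (GRCh38.p14).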

Additional observations from a re-analysis of the deposited data

Results flagged for a closer look

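In 7 of 80 sets of 8 libraries (a gene in a group), 1 library stood apart from the rest by Dixon's criterion, where chance gives about 1 in 20 sets. Control 2, the library with the fewest reads in genes (5556553), accounts for 4 of them: it was highest for HYOU1 (372.85 CPM, the next 307.4) and DNAJB11 (77.685, the next 63.5), and lowest for DNAJC10 (112.399, the next 128.0) and ERO1A (70.5545, the next 91.7). Peroxide 6 accounts for the other 3 and was highest each time, for HYOU1 (1407.32 CPM, the next 724.1), SDF2L1 (277.571, the next 124.5) and CRELD2 (109.811, the next 71.3). The log2 fold change was larger in batch 2 than in batch 1, by edgeR's test of the interaction, for HSPA5 (by 2.10), SDF2L1 (by 1.99), MANF (by 1.24), PDIA4 (by 1.19) and PDIA6 (by 0.79).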

How the results depend on the processing

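The count of 24 genes higher ranged from 17 (batch 1 alone) to 25 over all alternatives and that of genes lower from 3 to 4. With batch 1 alone, 0 prolyl isomerases and 2 translocon genes were higher, against 1 and 4 with all libraries and 1 and 4 with batch 2 alone, where 24 of the 40 genes were higher. The genes were not all the same: with batch 2 alone SEC62 lost its call and SSR4 gained one. The count of genes whose change depends on batch moved most: 688 of all genes tested became 1092 with DESeq2, 247 without control 1 and peroxide 5, and 335 (without peroxide 5) to 1237 (without peroxide 2) when 1 library was left out. The same count among the 40 genes, 5, became 9 with DESeq2, 13 without the filter, 3 without control 1 and peroxide 5, and 3 (without control 2, 4, 6 or 8 or peroxide 4) to 10 (without peroxide 8) with 1 library left out, and 9 without peroxide 2; the cause was not tested. All genes called numbered 6810, 9476 without the filter, 4988 without the batch term and 6367 to 6955 with 1 library left out. No fold change of the 40 genes reversed where it was called. Replicate numbers share the batch: same-numbered libraries correlated at 0.21 to 0.55 within groups but at -0.15 to 0.17 once batch was taken out, and 4 of 8 correlated best with their own number. A replicate block gave 6687 genes called, with 24 of the 40 higher and 4 lower (SSR1 added, adjusted p = 0.0199). The largest SEs were those of HSPA5 (0.32) and SDF2L1 (0.31), then FKBP2 (0.29), which had the fewest reads.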
